A study of Mus musculus with 12 samples.

Results

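The narrow strongly open regions of these macrophages were 4167 short stretches of autosomal DNA. Each held a peak well above its local background in every library of the series. No filter for repeats or doubtful mapping was applied to them here. They were chosen by the authors' own peak values. Peaks of all libraries that overlapped by at least 1 bp were chained into regions, and a region was kept when it was under 2000 bp wide, was called in all 12 libraries and had a fold of at least 10 in each of them. The fold is the read coverage at a peak's highest point, its summit, over the local background, as MACS2 gives it. The 4167 regions made up 10.04% of the 41499 autosomal regions under 2000 bp that all 12 libraries called, and 3.62% of all 115231 regions. The width limit removed none: without it, the fold minimum alone kept the same number, 4167, and the widest of them spanned 1923 bp. The X chromosome, which the rule leaves out, held another 119 such regions.

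The libraries came from ATAC-seq, which uses a transposase to cut and tag DNA that is not covered by nucleosomes. The cells were macrophages grown for 9 days with 20% L929 supplement from bone marrow of female C57BL/6 mice, either knockout (KO) for the long noncoding RNA lincRNA-EPS or wild type (WT), and LPS, a component of the outer membrane of Gram-negative bacteria, was added at 100 ng/ml for 2 or 6 h. The 6 groups of 2 libraries each were KO at 0, 2 and 6 h and WT at 0, 2 and 6 h, where 0 h had no LPS exposure. The labels describe the deletion no further and do not tell if the pair of libraries in a group had separate mice or dishes behind it, so the p-values reflect spread among libraries that may be purely technical. Inside the lists labelled 2 h the peak names give 1 h, and the label was kept.

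In animal genomes, sites that are open in many cell states are commonly promoters, enhancers and binding sites of CTCF, the factor that helps to hold chromatin loops in place. A regulatory site that is bound by factors usually shows as a short gap between nucleosomes, so that reads pile up over a short stretch with a clear summit. Macrophage enhancers are opened by lineage factors such as PU.1 and further remodelled when LPS activates NF-kB and interferon signalling. A gene annotation and genome sequence of the mm9 build, on which the lists are given, were not used here, so regions are identified by coordinates alone. For the same reason the cell type was not checked against macrophage marker genes.

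The 12 lists held 54771 to 91610 peaks. Read totals were not used here, but the coverage at each summit could be recovered as a whole number of reads, and the lowest background in a list served as a measure of depth. It ranged between 1.43 reads in KO 0 h replicate 2 and 3.35 reads in KO 6 h replicate 1. The median summit coverage of the strongly open regions was 60 reads in the first of these libraries and 112 reads in the second. Intervals on coverage are exact 95% Poisson intervals and cover counting error only.

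The 10 regions with the highest lowest fold reached a fold of at least 15.9 in every library. First among them was chr6:103598926-103599447, 522 bp wide. Its fold was 21.6 and 23.4 at 0 h, 21.1 and 20.5 at 2 h and 21.6 and 22.4 at 6 h in the KO libraries, and 21.0 and 21.8 at 0 h, 21.4 and 20.9 at 2 h and 21.7 and 21.1 at 6 h in the WT libraries. The KO and WT values overlapped, as did those of the 3 times. Its summit coverage lay between 118 and 154 reads. In WT 0 h replicate 1, for example, it was 126 reads, with an interval of 105 to 150.

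The next region, chr9:35112660-35113325, was 666 bp wide and the most deeply covered of the 10. Its fold was 21.8 and 21.1 at 0 h, 22.0 and 21.0 at 2 h and 22.1 and 21.3 at 6 h in KO, and 20.8 and 20.4 at 0 h, 21.1 and 21.3 at 2 h and 21.0 and 22.1 at 6 h in WT. Its coverage lay between 178 and 239 reads. The ranges of KO and WT overlapped again, as did those of the 3 times.

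The next, chr3:5860248-5860954, varied more. Its fold was 21.3 and 18.4 at 0 h, 20.4 and 22.6 at 2 h and 20.1 and 19.5 at 6 h in KO, and 19.8 and 19.7 at 0 h, 20.8 and 19.8 at 2 h and 19.4 and 18.0 at 6 h in WT. Its summit coverage was 132 and 92 reads at 0 h, 159 and 184 reads at 2 h and 107 and 85 reads at 6 h in KO, and 150 and 146 reads at 0 h, 169 and 132 reads at 2 h and 119 and 66 reads at 6 h in WT. All 4 libraries at 2 h had more reads at this summit than any library at 6 h. These reads are not scaled for depth, and the folds at 2 and 6 h overlapped.

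The other 7 of these 10 regions had lowest folds between 15.9 and 16.9. They lay at chr12:3109742-3110250, chr11:84816890-84817648, chr3:95392328-95393150, chr13:109343053-109343787, chr7:106102051-106102721, chr2:57042989-57043766 and chr11:60249986-60250770. The median peak width of each of the 10 over the libraries was between 460 and 715 bp. All 10 were thus no wider than the median peak of the whole set, which was 721 ± 34.6 bp (SD over 12 libraries). The chr12 region and the chr6 region were, at 509 and 522 bp, among the 3 narrowest of all 4167, with chr9:24346335-24346750, which spanned 416 bp.

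**Figure D1:**
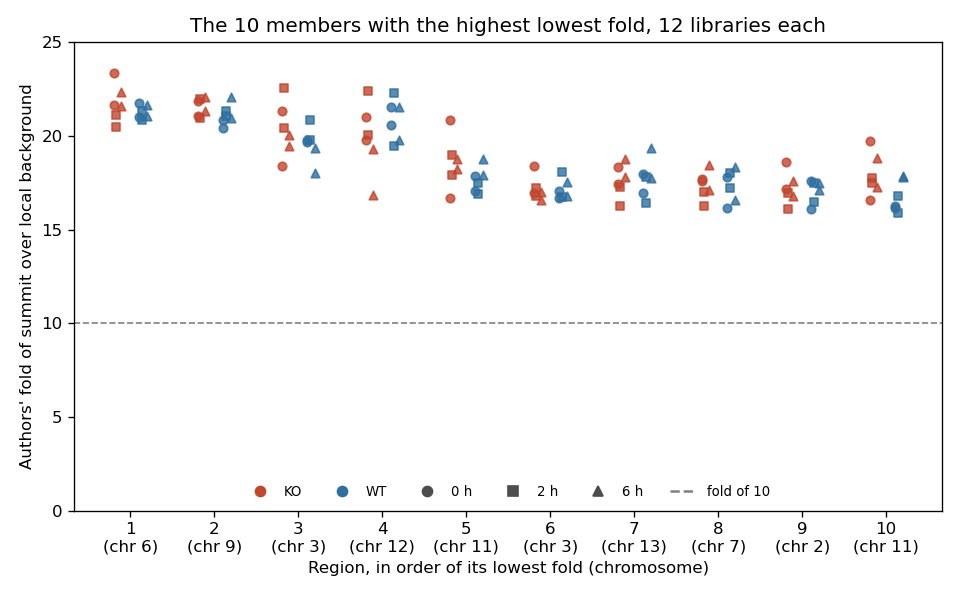
The authors' fold of the summit over the local background in each of 12 libraries (vertical axis) for the 10 regions with the highest lowest fold, in that order from left to right. Red points are KO and blue points WT libraries, the marker shape gives the time, and the dashed line is the fold of 10 that every member had to reach. The first region lies between 20.5 and 23.4 in all libraries, and KO and WT points overlap in each of the 10.

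Most members were close to the minimum. The lowest fold of a region over the 12 libraries had a median of 11.08, lay under 11 in 1959 regions (47.0%) and reached 15 in 23. The last regions inside the limit, such as chr1:40297204-40298005, had a lowest fold of 10, and the first outside it, such as chr10:128132282-128133927, had one of 9.99. The chr1 region had 31 to 87 reads at its summit and the excluded chr10 region 131 to 203 reads, so the limit did not order regions by reads. In single libraries 9214 to 12332 of the 41499 regions had a fold of at least 10. Of these 41499 regions, 21737 (52.4%) had it in 0 libraries and 1348 (3.25%) in 11.

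The fold of a member varied little over the 12 libraries. Its coefficient of variation had a median of 7.65%, against 10.5% for the counting error of 1 library at the region's mean coverage. In the other narrow always-called regions these values were 12.8% and 14.2%. The highest fold of a member was a median of 1.29 times its lowest. Because the rule required a high fold in every library, these values describe the choice and carry no test.

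The rule selects a ratio, and coverage and background both enter it. The median summit coverage per library was 60 to 112 reads at members and 30 to 65 reads at other narrow regions. The median local background was 3.66 to 8.08 reads at members and 3.18 to 7.92 reads at the others. Coverage at or above the members' median in every library occurred in 1322 members and in 2717 other regions. In those, the local background had a median of 8.69 reads at the members and 13.2 reads at the others.

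Summits of members moved less between libraries than those of other narrow regions. The distance of a summit from its region's median position over the 12 libraries had a median per library of 11.25 ± 1.47 bp at members and 20.4 ± 2.89 bp at other narrow regions (SD, n = 12 libraries). The difference of −9.13 bp had the same direction in 12 of 12 libraries (exact two-sided sign-flip permutation test, p = 0.000488, the smallest that 12 libraries can give, Benjamini-Hochberg adjusted p = 0.00114 over 7 tests). All 12 libraries score the same regions, so this p covers only the spread between libraries. The same holds for the comparisons of peak number and peak width below. The offset moved with coverage, which the rule selects through the fold. This p therefore does not separate the steadier summits from the higher coverage. A mean coverage of 80 to 100 reads, a range chosen after seeing the data, held 1138 members and 3757 others. There the offset was 11.7 ± 1.75 bp at members and 13.9 ± 2.05 bp at the others, lower at members in 12 of 12 libraries.

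The spread of a summit over the libraries, as an SD, had a median of 29.7 bp at members and 46.4 bp at the others, and the median range was 94 bp at members and 145 bp at the others. It was 10 bp or less in 293 members (7.03%) and 759 others (2.03%). All 12 summits fell within 20 bp in 92 members (2.21%) and 220 others (0.589%). The steadiest was chr17:85025509-85026227, with 12 summits within 5 bp and an SD of 1.44 bp, followed by chr14:11285152-11286401 with an SD of 1.82 bp and chr7:132587787-132589006 with 1.99 bp. At the other end, the summits of chr7:107854480-107855652 spread over 439 bp, with an SD of 169 bp.

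**Figure D2:**
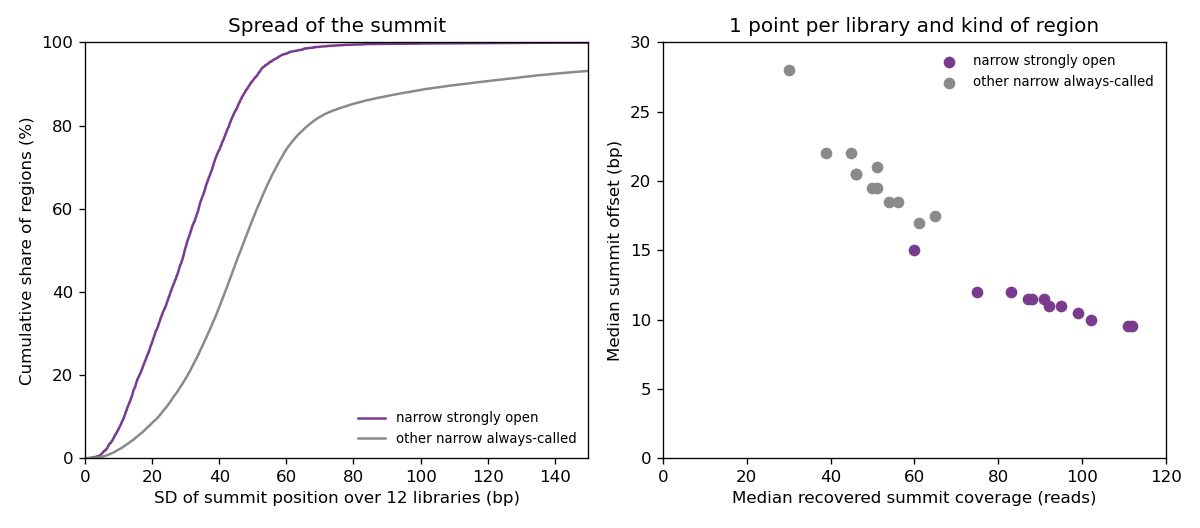
Left, the cumulative share of regions (%) by the SD of their summit position over 12 libraries (bp), for the 4167 narrow strongly open regions (purple) and the 37332 other narrow always-called regions (grey). Right, the median summit offset of a library (bp) against its median summit coverage (reads), 1 point per library and kind of region. The purple curve rises first, and the member points run between 9.5 and 15 bp, with the highest at the library of 60 reads.

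Members were mostly single peaks. More than 1 peak or summit was called in a region in 1.67% ± 0.261 of members per library, against 4.999% ± 0.585 of the other narrow regions (SD, n = 12). The share was lower at members in 12 of 12 libraries, by 3.33 percentage points in the mean (exact two-sided sign-flip permutation test, p = 0.000488, adjusted p = 0.00114). Over all 12 libraries 3894 members (93.4%) had 1 peak in each, against 31231 of the other narrow regions (83.7%). The summit stood close to the middle of the peak, at a median of 0.495 of its width at members and 0.494 at the others.

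Peaks at members were wider than those at other narrow regions, at 721 ± 34.6 bp against 558 ± 36.5 bp (SD, n = 12), in 12 of 12 libraries (exact two-sided sign-flip permutation test, p = 0.000488, adjusted p = 0.00114). Width also moved with coverage, which the rule selects through the fold. This p therefore does not separate width from coverage. The direction of the width difference turned among regions of like coverage. At a mean of 80 to 100 reads, member peaks were 721 ± 37.2 bp wide and the others 767 ± 41.9 bp, and members were narrower in 12 of 12 libraries. At like coverage the fold minimum asks for a lower local background, so this comparison is not independent of the rule either. The same holds for the summit offset in that range of coverage.

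The strongly open regions stood apart from other called regions. The nearest other always-called region was a median of 13.7 kb away, against 7.83 kb for the other narrow regions. It lay within 5 kb for 94 members (2.26%) and for 12358 of the others (33.1%). A region called in any library lay within 5 kb of 899 members (21.6%), against 64.7% of the others. The curve of the members stayed close to 0 up to 5 kb and bent sharply upward there. MACS2 reads the local background from the surroundings of a peak, out to 5 kb on each side at its default settings, and the settings used here are not given. That background is part of the fold, so the distance is not independent of the rule and was given no test.

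**Figure D3:**
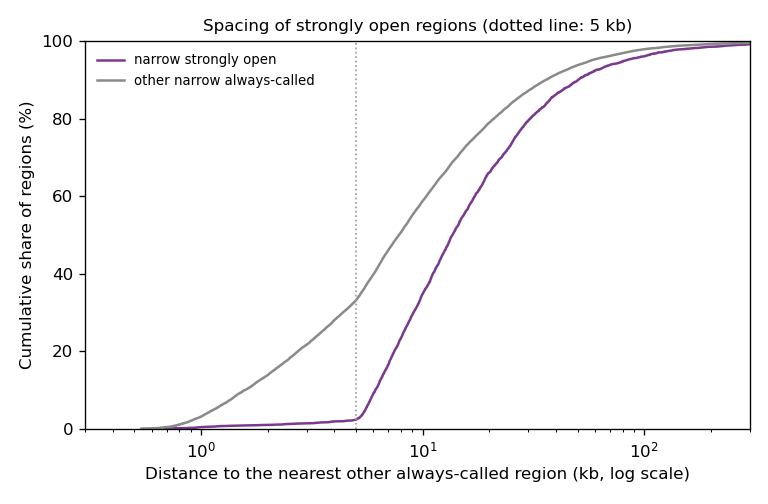
Cumulative share of regions (%) by the distance to the nearest other region called in all 12 libraries (kb, log scale), for members (purple) and the other narrow always-called regions (grey). The dotted line marks 5 kb, which 2.26% of members and 33.1% of the others fall short of.

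Members were spread over all 19 autosomes, at 8.59% of the narrow always-called regions on chromosome 19 and up to 11.6% on chromosome 13. The nearest other member was a median of 104.4 kb away, against 104.6 kb from the other narrow regions to their nearest member. Within 5 kb, 0 of the 4167 had another member, and 94 of the others (0.252%) had one. Within 10 kb the shares were 4.82% of members and 4.18% of the others. The stretch of 1 Mb that held most began at chr10:74583618 and ended at chr10:75495956, with 13 members among 36 narrow always-called regions. Their lowest folds ran between 10 and 14.7.

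The order of the folds among the 4167 members was partly shared by all libraries. Spearman's rho across regions, which share libraries and depth and are not independent replicates, was 0.530 to 0.659 between the libraries of a group (6 pairs, median 0.631). Between libraries at 2 and 0 h it had a median of 0.570, between 6 and 2 h one of 0.516 and between 6 and 0 h one of 0.449 (16 pairs each). Without KO 0 h replicate 2, the shallowest library, the median between 6 and 0 h was 0.461.

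Within this set, the fold ranks of some regions did not overlap between times. To compare times, each region was given its percentile of fold among the 41499 narrow always-called regions of the same library. At 6 h, 140 members had all 4 percentiles above all 4 at 0 h, against a background of 8.81% of all 41499 regions, and 311 had them below, against 11.5%. The members' shares were 3.36% and 7.46%. At 2 h, 97 members were higher, against a background of 2.98%, and 119 lower, against 4.25%. Under the weaker condition that each same-numbered pair of libraries moved one way, 371 were higher at 6 h, against a background of 16%, 711 lower, against 20.5%, 311 higher at 2 h, against 8.42%, and 445 lower, against 11.9%. Ranked by −log10 p in place of fold, the balance at 6 h turned, with 526 members higher and 273 lower. Since the rule held all 12 folds high, nothing is read from these shares.

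Among those higher at 6 h, chr2:93929945-93930751 stood at percentile 96.7 ± 0.63 at 6 h and 78.7 ± 4.02 at 0 h (SD, n = 4), and chr10:36923451-36924625 at 96.95 ± 2.44 at 6 h and 80.7 ± 4.48 at 0 h. The chr10 region stood at 81.0 ± 3.03 at 2 h. The 3 others with the largest gap were chr17:40926730-40927355, chr9:41966488-41967317 and chr13:100725168-100726091. Among those lower at 6 h, chr1:58818064-58818890 stood at 82.1 ± 4.61 at 6 h and 99.3 ± 0.47 at 0 h. Also in that direction were chr2:60659597-60660583, chr4:63508006-63508871, chr1:185803443-185804331 and chr4:28871260-28871999. At 2 h the means of these 5 lay between 93.2 and 95.9.

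At 2 h, the 3 members with the largest gap upward were chr19:34117443-34118068, chr2:5500341-5500939 and chr11:98029769-98030484. The first of these stood at 81.5 ± 4.03 at 0 h, 94.9 ± 1.95 at 2 h and 86.0 ± 3.47 at 6 h (SD, n = 4). The chr11 region stood at 84.5 ± 5.69 at 0 h, 96.95 ± 2.05 at 2 h and 97.8 ± 0.794 at 6 h. The 3 with the largest gap downward were chr19:53112261-53113584, chr8:110084819-110085610 and chr18:3507180-3508439.

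Between genotypes, 8 members had all 6 KO percentiles above all 6 WT percentiles, against a background of 0.0795%, and 7 had them below, against 0.0867%. The largest gaps upward were at chr17:63705479-63706124, with 96.7 ± 2.25 in KO and 87.4 ± 7.20 in WT (SD, n = 6), chr11:108285959-108287096 and chr9:108528673-108529319. The largest downward were at chr18:68496773-68497538, with 80.5 ± 4.72 in KO and 93.4 ± 4.42 in WT, chr11:32200434-32201070 and chr18:32306820-32307634. With same-numbered pairs, 80 were higher in KO, against a background of 1.92%, and 82 lower, against 1.87%. These too are values the rule used, and they have no test.

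Peak width was no part of the rule beyond the limit on regions, although it moves with coverage, which the fold contains. The median width of member peaks was 683 ± 23.3 bp at 0 h, 740 ± 16.5 bp at 2 h and 740.5 ± 26.4 bp at 6 h (SD, n = 4). In the other narrow regions it was 519 ± 26.5 bp at 0 h and 579 ± 28.6 bp at 6 h. The rise was thus not particular to members. The median summit coverage of members was 94.5 ± 12.3 reads at 6 h and 77.5 ± 13.1 reads at 0 h. The difference of 57.25 bp in width between 6 and 0 h had p = 0.0138 in an exact two-sided permutation test that exchanged time labels within genotype (adjusted p = 0.0242). It was 82.5 bp within KO, where the lowest background was 2.76 reads at 6 h and 1.60 reads at 0 h, and 32 bp within WT, where it was 2.43 reads at both times. Without KO 6 h replicate 1, the deepest library, it was 42.25 bp and p was 0.101. The part of depth in the larger KO value was not tested.

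Member peaks were 717 ± 45.7 bp wide in KO and 725 ± 22.4 bp in WT (SD, n = 6), a difference of −8.33 bp (exact two-sided permutation test within times, p = 0.574, adjusted p = 0.602). The summit offset was 11.5 ± 2.00 bp in KO and 11 ± 0.775 bp in WT (exact permutation test, p = 0.602, adjusted p = 0.602). At 6 h the offset was 11 ± 1.08 bp, against 12.5 ± 1.68 bp at 0 h (exact permutation test, p = 0.195, adjusted p = 0.273).

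**Figure D4:**
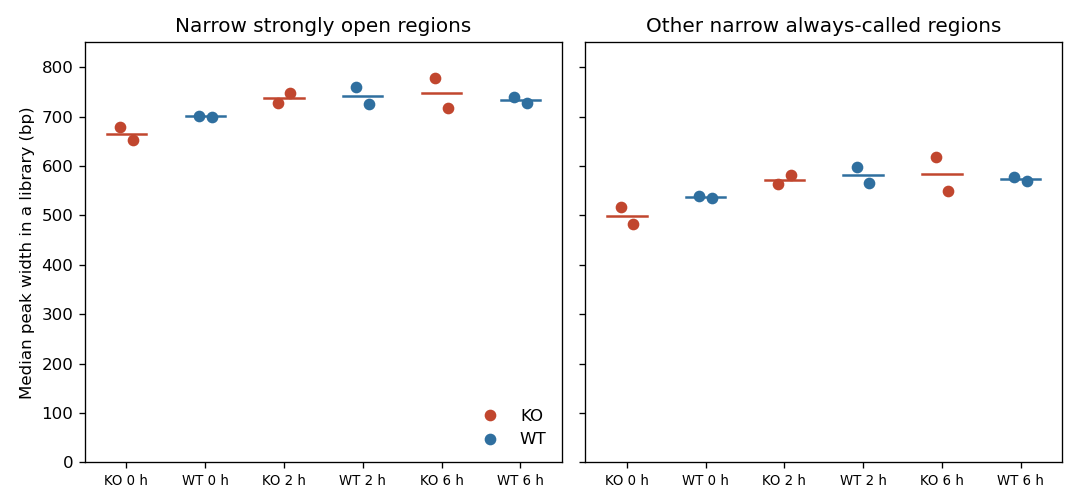
Median peak width of each library (bp, from 0) at the narrow strongly open regions (left) and the other narrow always-called regions (right). Points are the 2 libraries of a group, short lines their mean, red KO and blue WT. Member peaks lie between 652 and 778 bp and the others between 482 and 618 bp.

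Single regions were tested with limma on the log2 width of the peak that held the highest fold, after each library's median over the 41499 regions was subtracted. Benjamini-Hochberg adjustment ran over all 41499, at a threshold of 0.05. At 6 h, 55 members were wider than at 0 h (1.32%, against a background of 4.11%) and 80 were narrower (1.92%, against 4.02%). The centring matters: widths rose at 6 h by a median of 0.11 on the log2 scale over all regions, and without centring 281 members were wider and 7 narrower. With each library's background coverage as a covariate, 29 of the 55 and 15 of the 80 passed. Without WT 6 h replicate 1 the count of wider members was 26, and without KO 6 h replicate 1 that of narrower members was 29.

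The log2 changes of the 55 ran between 0.22 and 0.95, with a median of 0.39. In all 55 the 4 widths at 6 h lay above the 4 at 0 h. The 55 were called on these same widths, so this gives no separate support. In 29 of them (52.7%) at least 80% of the extension was on 1 side. The border that moved more went outward by a median of 214 bp and the other by 57.75 bp. In 7 of the 55 a library at 0 h held a second peak in the region, so the peak measured there was 1 of 2.

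The named examples are the 8 largest changes each way, a choice made after their values were seen. The most clear-cut was chr1:144561585-144562829. Its peak was 626 and 615 bp wide at 0 h, 674 and 643 bp at 2 h and 1141 and 1204 bp at 6 h in KO, and 581 and 572 bp at 0 h, 600 and 564 bp at 2 h and 1122 and 1152 bp at 6 h in WT. All 4 libraries at 6 h stood apart from the 8 earlier ones, in both genotypes. The right border moved outward by 490.75 bp and the left by 65.5 bp (limma, log2 change 0.80 ± 0.07 SE, adjusted p = 0.000386).

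The largest change was at chr9:55209624-55210861. Its peak was 539 and 509 bp at 0 h, 597 and 1121 bp at 2 h and 1217 and 1065 bp at 6 h in KO, and 515 and 532 bp at 0 h, 568 and 608 bp at 2 h and 1126 and 1090 bp at 6 h in WT. One KO library at 2 h was as wide as those at 6 h, and 1 library at 0 h and 1 at 2 h called 2 peaks in the region. The right border moved by 556.5 bp (limma, log2 change 0.95 ± 0.17 SE, adjusted p = 0.00937). At chr2:117677580-117678657 the left border moved instead, by 500.75 bp (0.88 ± 0.17, adjusted p = 0.0152). That peak was 512 and 503 bp at 0 h, 903 and 502 bp at 2 h and 1078 and 986 bp at 6 h in KO, and 464 and 508 bp at 0 h, 917 and 871 bp at 2 h and 965 and 1023 bp at 6 h in WT, so 3 of the 4 libraries at 2 h were already wide. In 3 of the 4 libraries at 0 h, 1 of the 4 at 2 h and 0 at 6 h this region was called as 2 peaks, and the width is that of 1 of them.

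The other 5 were chr1:28110132-28111424, chr1:75528595-75529822, chr4:62068511-62070302, chr5:44083592-44084647 and chr2:126135478-126136590, with log2 changes between 0.61 and 0.71. Of these, chr1:75528595 and chr4:62068511 each had 2 peaks in 2 libraries at 0 h. At the chr1:75528595 region the 2 h peaks were 983 and 1148 bp in KO and 652 and 635 bp in WT. Genotypes were also compared in the change of width with time. This limma test called 0 members at 2 h (103 at an unadjusted p under 0.05) and 0 at 6 h (121). Of all 41499 regions it called 4 at each time.

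A narrower call is relative to the library's median width, as the count of 7 without centring shows. At chr7:4598747-4599989 the peak was 1162 and 541 bp at 0 h, 538 and 1126 bp at 2 h and 491 and 474 bp at 6 h in KO, and 819 and 1009 bp at 0 h, 1116 and 1025 bp at 2 h and 456 and 521 bp at 6 h in WT (limma, log2 change −0.96 ± 0.24 SE, adjusted p = 0.0389). Its right border lay 351 bp further in at 6 h, and all 4 libraries at 6 h called 2 peaks in the region, as did 1 at 2 h and 1 at 0 h. At chr16:11385514-11386626 it was 943 and 1005 bp at 0 h, 986 and 998 bp at 2 h and 686 and 774 bp at 6 h in KO, and 1053 and 969 bp at 0 h, 968 and 1022 bp at 2 h and 738 and 791 bp at 6 h in WT (−0.56 ± 0.09, adjusted p = 0.00557), with no overlap between 6 h and the earlier times. The other 6 were chr4:144626797-144627900, chr13:29755054-29756106, chr13:24372377-24373474, chr4:47717219-47718018, chr13:74382776-74383580 and chr18:34910925-34911962.

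**Figure D5:**
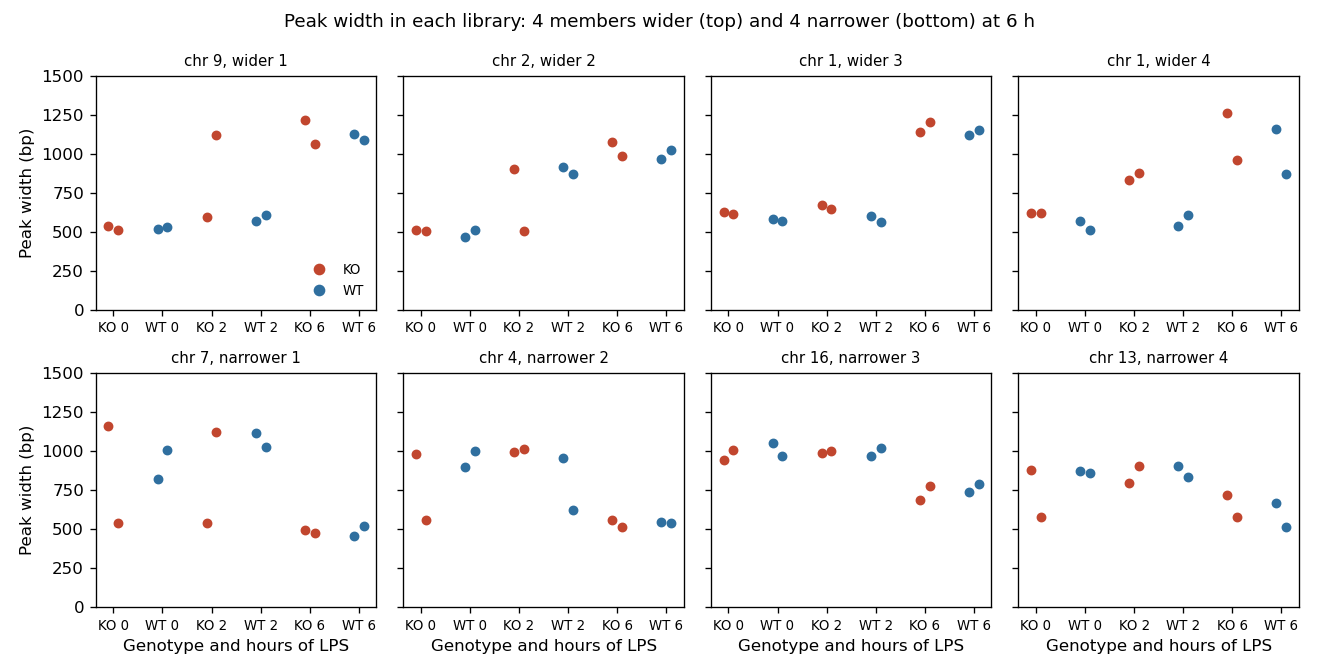
Peak width (bp) in each library by genotype and hours of LPS, for the 4 members with the largest widening (top) and the 4 with the largest narrowing (bottom) at 6 h against 0 h. Each point is a library, red KO and blue WT. In the top row the widths at 6 h lie above those at 0 h in both genotypes, and at the third region the 2 h widths, 564 to 674 bp, lie with those at 0 h.

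At 2 h, 2 members were wider than at 0 h (background 0.133%) and 1 was narrower (background 0.00241%). At chr2:62298192-62299244 the peak was 650 and 570 bp at 0 h, 959 and 981 bp at 2 h and 1050 and 962 bp at 6 h in KO, and 580 and 626 bp at 0 h, 978 and 1002 bp at 2 h and 1013 and 1049 bp at 6 h in WT. One library at 0 h called 2 peaks there. At chr9:13412529-13413649, with 2 peaks in 2 libraries at 0 h, it was likewise wider from 2 h on, at 1007 to 1121 bp against 657 to 703 bp at 0 h. The narrower one, chr1:9882642-9883699, had 573 to 625 bp at 2 h and 638 to 829 bp at 0 h. Its width at 6 h was 840 to 1019 bp.

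Summits moved in 3 members between 6 and 0 h by limma, all chosen by that test. At chr11:101813907-101814755 the summit stood, relative to the median over 12 libraries, at −16.5 and −21.5 bp in KO and −12.5 and −10.5 bp in WT at 6 h, against 119.5 and 120.5 bp in KO and 110.5 and 121.5 bp in WT at 0 h (shift −133 bp ± 21.95 SE, adjusted p = 0.0497). At chr7:90745178-90746042 it lay 132 bp further right (± 17.1 SE, adjusted p = 0.0104) and at chr14:58042320-58043409 further left (shift −123 bp ± 18.0 SE, adjusted p = 0.0222). The background was 0.145% for shifts to the right and 0.0867% for shifts to the left. With background coverage as a covariate, 0 of the 3 passed. At 2 h, 0 members had a summit further right (80 at an unadjusted p under 0.05, background 0.012%) and 0 further left (56, background 0.00964%).

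Loss of lincRNA-EPS changed neither shape measure past the threshold at any member. By limma with time in the model, 0 members were wider in KO than in WT (82 at an unadjusted p under 0.05, background 0%). Narrower in KO were 0 members (52 unadjusted, background 0%). The lowest adjusted p was 0.572. The 95% interval of a single region's difference had a median half-width of 0.142 on the log2 scale, and 95% of the fitted differences lay between −0.145 and 0.157. Summits were further right in KO at 0 members (59 unadjusted, background 0.00241%) and further left at 0 (54, background 0%). Their intervals had a median half-width of 38.6 bp.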

How the data were processed

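ATAC-seq was measured in 12 libraries. The submitters' processing notes name the tools Bowtie2 2.1.0, Picard and MACS2 and the mm9 build. How duplicates and the transposase offset were treated is not given in these sources. Duplicates that were kept would raise coverage. The deposited lists, 1 per library, give each peak's score, its fold (a ratio to local background) and −log10 values of its p-value and q-value. These are the authors' values, used to describe, rank and filter within a list.

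Whole-number summit coverage was solved from fold and p, and reproduced every listed p to 0.001 in log10 units. Where a library had several peaks in a region, the one with the highest fold was used. Widths and summits were fitted with limma (time plus genotype, robust empirical Bayes) on all 41499 narrow always-called regions. The limma fits and the range of 80 to 100 reads were chosen after seeing the data. Medians per library were compared by exact permutation tests. On simulated 6 h against 0 h changes among 41499 regions, limma recovered 9% of regions with a log2 width change of 0.3, 68% at 0.6, 1% of summit shifts of 60 bp and 20% at 120 bp. Each size was given to 100 regions drawn from all 41499, not from the members alone. The real width fit called more regions at 6 h, 1704 wider and 1670 narrower. The simulated rates therefore need not hold for the real fits or for members.

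Named regions are the 10 with the highest lowest fold, the extremes of width and summit spread, the largest rank gaps per comparison, those nearest the minimum and the densest 1 Mb. Members and lists were chosen with earlier results of these data known. Versions were Python 3.11.15, numpy 2.4.6, pandas 2.3.3, scipy 1.17.1 and limma 3.58.1 in R 4.3.3.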

Additional observations from a re-analysis of the deposited data

Results flagged for a closer look

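Among 47 groups of 4 or 6 values checked, 6 held a library whose gap to its nearest neighbour was a large share of the group's range, where chance gives about 1 in 20 groups. KO 0 h replicate 2, the library with the lowest background coverage, had a median summit offset of 15 bp at the strongly open regions, against 11.5 to 12 bp in the other libraries at 0 h. WT 2 h replicate 1 had 9.5 bp, against 11 to 11.5 bp in the other WT libraries. WT 6 h replicate 2 had more than 1 peak or summit in 2.09% of members, against 1.49% to 1.68% in the other WT libraries. The other 3 were widths at 0 h of regions named for a change with LPS. At chr1:75528595-75529822 KO 0 h replicate 2 had 566 bp, against 621 to 630 bp in the other 3 libraries. At chr2:126135478-126136590 KO 0 h replicate 1 had 588 bp, against 548 to 554 bp. At chr13:29755054-29756106 KO 0 h replicate 2 had 580 bp, against 862 to 879 bp.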

How the results depend on the processing

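Of 402 alternatives tried over 26 results, 291 kept their direction and their side of the threshold or stayed within 1.5 times, 107 moved further, 1 lost its call and 3 turned in sign; except where a construction is named, the cause was not tested. A fold minimum of 8 gave 10890 regions and one of 12 gave 1017, against 4167; leaving out 1 library gave 4191 to 4424. Ranking by −log10 p gave 526 members higher and 273 lower at 6 h, against 140 and 311 by fold, 203 higher and 74 lower at 2 h and 3 higher in KO, and ranking among members alone gave 4 lower in KO. Same-numbered libraries did not deviate together (15 correlations between −0.04 and 0.05). This cannot exclude a pairing of samples that leaves no trace in these values. As a replicate block, asking only that each same-numbered pair move one way gave 371 higher and 711 lower at 6 h (backgrounds 16% and 20.5%). It gave 311 and 445 at 2 h (8.42% and 11.9%), and 80 and 82 in KO (1.92% and 1.87%). With a block in the fit, 0 members were narrower at 2 h and 1 summit lay further left at 6 h. Without centring, 281 members were wider and 7 narrower at 6 h, and 5 and 0 at 2 h; with background coverage as a covariate, 29 and 15 at 6 h, 1 and 0 at 2 h, and 0 summits further right or left. Summed peak widths gave 0 wider and 0 narrower at 2 h, and an overlap of 100 bp gave 1 summit further left. In the bin of 80 to 100 reads, member peaks differed from others by −46.2 bp.

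Leaving out each library in turn leaves fewer values to overlap, and gave 185 to 228 members higher and 378 to 464 lower in rank at 6 h, 142 to 186 and 175 to 244 at 2 h, and 9 to 19 and 8 to 14 in KO. Wider members at 6 h numbered 26 to 48 (26 without WT 6 h replicate 1, 31 without KO 6 h replicate 2, 33 without WT 0 h replicate 1, 35 without WT 6 h replicate 2) and narrower ones 29 to 55 (29 without KO 6 h replicate 1, 37 without KO 0 h replicate 2 or WT 6 h replicate 2, and 40 to 53 without 7 others). At 2 h there were 1 to 4 wider and 0 to 1 narrower. Summits further right numbered 1 to 3 at 6 h and 0 to 1 at 2 h, further left 0 to 2 and 0 to 1. The width difference between 6 and 0 h was 42.25 to 72.25 bp, and its call was lost without KO 6 h replicate 1 (42.25 bp). KO minus WT width was −18.3 to 1.67 bp, turning without KO 6 h replicate 2, and the KO minus WT offset 0 to 1 bp, 0 without KO 0 h replicate 2. The 6 h minus 0 h offset was −2.25 to −0.75 bp. Members minus others stayed at 162.5 to 163.6 bp in width, −9.27 to −8.77 bp in offset and −3.43 to −3.26 points in multiple peaks. In simulation the width and summit fits rarely recovered small changes, and how depth bears on this was not tested.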

Other observations

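At 3 of the strongest regions, coverage differed less between the shallowest and the deepest library than at most members. The summit coverage of KO 0 h replicate 2 was a median of 0.544 of that of KO 6 h replicate 1 over the 4167 members, and 95% of members lay between 0.336 and 0.764. The lowest background of these libraries had a ratio of 0.426. The ratio was 0.792 at chr6:103598926-103599447, 0.771 at chr9:35112660-35113325 and 0.860 at chr3:5860248-5860954, percentiles 98.4, 97.7 and 99.2 among the members, and 0.723 at chr12:3109742-3110250. At the other 6 of the 10 regions with the highest lowest fold it lay between 0.511 and 0.699. Both libraries are KO and they differ in depth and in LPS exposure, so depth and time cannot be told apart in this ratio. It rests on 1 pair of libraries. Over all 12, the summit coverage at chr3:5860248-5860954 lay between 66 and 184 reads.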
